A study of Bos taurus with 4 samples.

Results

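The solute carriers of subcutaneous fat were described in Qinchuan cattle, a Chinese breed. They were taken as the transcript clusters that the deposited sequence file describes as belonging to a solute carrier family and that were selected on their measured reads, with 100 or more reads summed over the 4 libraries. Of 250 such clusters with a read, 170 reached this minimum and 80 did not, among 36373 clusters in all. The 170 clusters carried 167 gene symbols of 41 families, since SLC11A2, SLC25A37 and SLC23A2 had 2 clusters each. Their summed reads ran from 101 to 59129 with a median of 1060. The clusters just inside the minimum were SLC22A4 with 101 reads and SLC25A27 with 110, and those just outside were SLC28A1 with 99 and SLC16A14 with 91. In 4 of the 170, SLC7A6OS, SLC4A1AP, SLC9A3R1 and SLC9A3R2, the description names a gene next to or a protein bound to a transporter, so the gene is not itself a transporter. Without its highest library a cluster would have missed the minimum in 15 cases, among them SLC7A10, SLC27A5 and SLC2A5. The 3 adult libraries together stood under the minimum for 6 clusters and ATFB alone for 63. For such clusters part of the difference between libraries was set by the choice on summed reads, and their ratios are descriptions.

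The fetal tissue, ATFB, was from fetuses labelled as 200 to 250 days old. The adult tissue came from bulls (ATAB), from heifers (ATAH) and from steers, males that had been castrated (ATAS), and all adults were labelled as 18 to 24 months old. The sex of the fetuses was not given in the sources used here. Fat of 5 animals was pooled in each group before RNA extraction, and each pool was sequenced as 1 library, so differences between libraries could not be checked on replicates. Reads assigned to a cluster were counted and expressed as RPKM, reads scaled to sequence length and to library size.

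Solute carriers move sugars, amino acids, organic acids, lipids, nucleosides, metals and ions across cell and organelle membranes. Plasma membrane members set what an adipocyte can take up, among them the insulin-responsive glucose transporter and the lactate carriers, while family 25 lines the inner mitochondrial membrane and exchanges nucleotides, phosphate, acyl-carnitines and organic acids. Ruminant fat makes fatty acids mainly from acetate rather than from glucose.

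Between 15.3 and 16.1 M reads were counted per library. The solute carrier clusters took 7125 of each 1 M reads in ATFB and 6573, 7701 and 8327 in ATAB, ATAH and ATAS. Reads covered a median of 83.4% of their sequence in ATFB and 90.4%, 91.4% and 92.2% in ATAB, ATAH and ATAS. Here and below, a listed gene is said to have a cluster where its symbol could be matched to a deposited sequence. A gene without a match may still be expressed, and such genes, FABP4 and DLK1 among them, are missing from the sums. Of the markers listed for the cells of fat, 6 of 7 adipocyte genes had a cluster, none of them without reads. Their summed RPKM was 725 in fetal fat and 4173, 5119 and 5513 in bull, heifer and steer fat. The sum of 5 of 6 preadipocyte and fibroblast genes was 10473, 7747, 2288 and 2997 RPKM in the same order, although COL3A1 was higher in ATAB (2903 RPKM) than in ATFB (1980.3 RPKM). For 2 of 6 erythroid genes it was 2390.2 RPKM in fetal fat and 0.761, 1.54 and 0 in bull, heifer and steer fat, nearly all of it HBG2, with both genes at 0 reads in ATAS. Endothelial genes, 4 of 5, summed to 182 RPKM in ATFB and 256 to 449.8 in the adult libraries. In bull fat 1 of the 4 was called higher than in fetal fat (25%, against 16.4% of the described clusters with 100 or more reads). In heifer and steer fat 2 each were called higher (50%, against 23.5% and 26.6%). Of the endothelial genes, VWF went from 22.3 to 95.8 RPKM in ATAB, whereas PECAM1 went from 106 to 95.9. The 5 of 5 leukocyte genes summed to 122 RPKM in ATFB and 199 to 307 in the adult libraries. Of 3 brown adipocyte genes, 2 had a cluster. CIDEA had 25.99 RPKM in fetal fat and 159, 164 and 41.9 in bull, heifer and steer fat, and PPARGC1A had 1.41 RPKM and 1.07, 1.34 and 2.26. Of 3 keratinocyte genes, KRT14 had 147 reads in ATFB and 0, 2 and 2 in the adult libraries, called lower in each, and KRT10 had 104, 92, 94 and 62 reads without a call. The sums of 3 of 6 skeletal muscle and 2 of 4 melanocyte genes were at most 4.83 RPKM in any library. These markers moved with the comparisons below, and their part in them was not tested. In pooled bulk tissue, fewer cells of a type and less RNA per cell cannot be told apart.

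The question asked of fetal against adult fat was how the carriers differ with age. Levels spanned a wide range. SLC25A6 reached 998 RPKM in ATFB, whereas SLC2A5 stood at 0.0899 RPKM in ATAH. At 10 RPKM or more stood 46 of the 170 clusters in ATFB and 53, 63 and 65 in ATAB, ATAH and ATAS, and under 1 RPKM stood 30, 12, 11 and 9. The library with the lowest level was ATFB for 92 clusters (54.1%), against 44.7% of the 10213 described clusters with 100 or more reads, and it was ATAB for 37 (21.8%, against 33.4%), ATAH for 25 (14.7%, against 10.8%) and ATAS for 16 (9.41%, against 11.1%). ATAS was the highest for 72 clusters (42.4%, against 40.5% of the described clusters), and ATFB for 34 (20%, against 31.2%). By class, mitochondrial carriers had the largest summed RPKM, 1519 in fetal fat and 1245, 1172 and 1107 in bull, heifer and steer fat, out of 3288, 2864, 3244 and 3504 for all members. Of the mitochondrial sum in ATFB, SLC25A6 alone made up 998 RPKM. The median RPKM of that class went the other way, from 7.51 in ATFB to 8.85, 12.1 and 12.3 in ATAB, ATAH and ATAS. Glucose carriers summed to 132, 49.5, 58.0 and 78.5 RPKM and monocarboxylate carriers to 58.8, 192, 197 and 133. Of the glucose sum in ATFB, SLC2A3 alone made up 117 RPKM. ATFB was the highest library for 1 of the 7 glucose clusters, and their median log2 ratios to ATFB were 0.70, 0.23 and 0.63 for bull, heifer and steer fat, the heifer value at -0.04 with ACTB scaling.

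**Figure D1:**
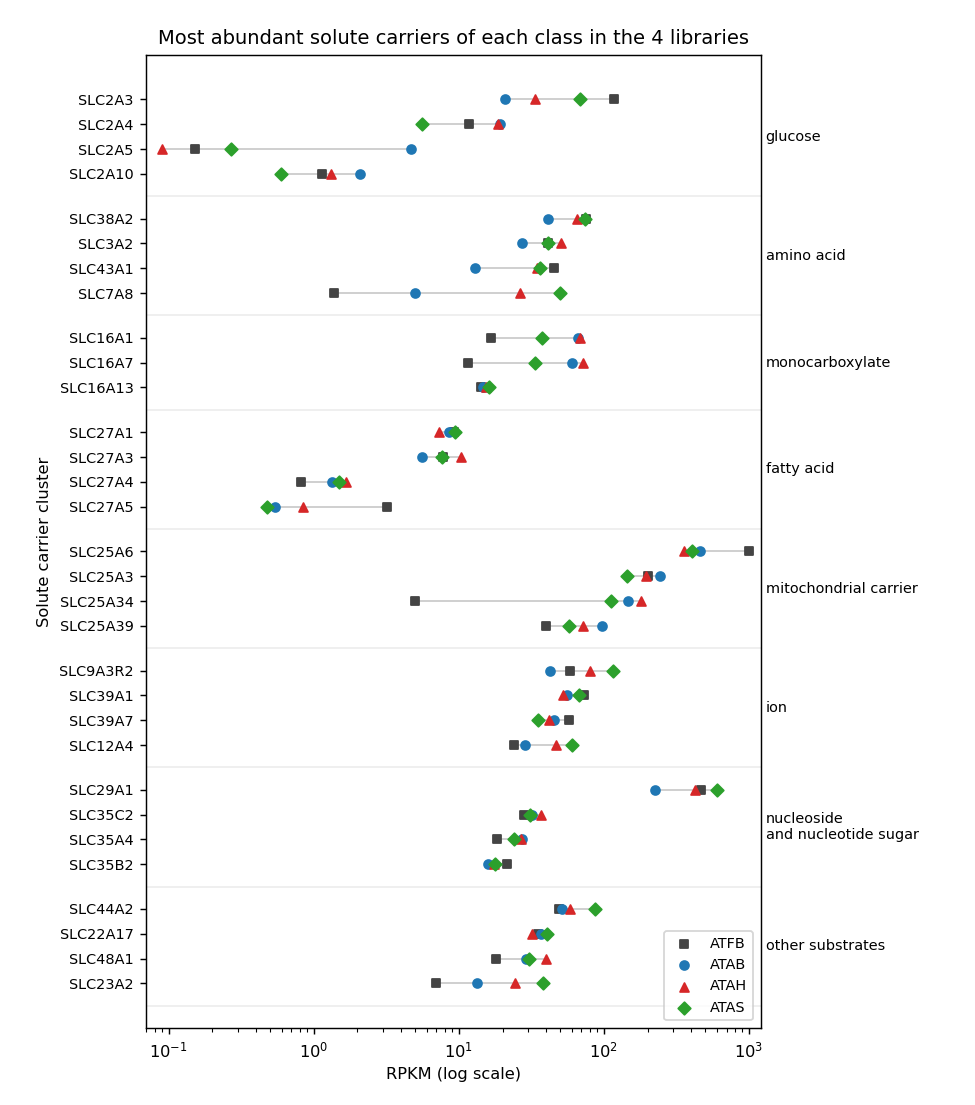
Level of the most abundant solute carriers of each class, up to 4 per class, as RPKM on a log scale. Each symbol is 1 library (1 pool of 5 animals), so there are no error bars, and the grey line joins the lowest and the highest library. SLC25A34 stood at 4.96 RPKM in ATFB and above 100 RPKM in each adult library, whereas SLC16A13 lay between 14.1 and 16.1 RPKM.

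A cluster was called between 2 libraries at an FDR of 0.001 or less in an exact two-sided binomial test of its reads, with Benjamini-Hochberg adjustment over all clusters tested, and a log2 ratio of 1 or more in either direction. The test compares the 2 libraries and not the conditions, and the 95% intervals given with ratios, from the exact Clopper-Pearson bounds on how the reads divide, cover counting error only. In ATAB, 45 of the 170 clusters were called higher than in ATFB and 11 lower. The share called higher was 26.5%, against 16.4% of the described clusters with 100 or more reads and 9.51% of all clusters tested. The share called lower was 6.47%, against 13.1% of the described clusters and 13.1% of all. In ATAH, 58 were called higher (34.1%, against 23.5% of the described and 13.9% of all clusters) and 12 lower (7.06%, against 10.2% and 9.83%). In ATAS, 61 were called higher (35.9%, against 26.6% and 15.5%) and 11 lower (6.47%, against 9.49% and 10.5%). ACTB scaling, which lowers each log2 ratio by one constant, left 36 higher and 15 lower in ATAB, 21.2% and 8.82% of the members against 12.5% and 19.4% of the described clusters. It left 43 and 19 in ATAH, 25.3% and 11.2% against 17.7% and 15.6%. In ATAS it left 47 and 17, 27.6% and 10% against 20.8% and 14%. The 3 comparisons share the ATFB library, so each is one reading of it and not an independent one.

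The median log2 ratios of the 170 clusters were 0.29, 0.44 and 0.70 for ATAB, ATAH and ATAS, where the described clusters had medians of -0.00, 0.24 and 0.32. Scaling by TMM or DESeq2 factors moved every log2 ratio to ATFB by 0.18 and 0.14 in ATAB, by -0.10 and -0.14 in ATAH and by -0.12 and -0.16 in ATAS, and scaling by ACTB moved them by -0.24, -0.27 and -0.25. The medians of the 170 clusters stayed above 0 under each of these, between 0.05 and 0.58. When a biological coefficient of variation of 0.4 was assumed in place of counting error alone, in the exact test of edgeR, the calls came down to 2 higher and 1 lower in ATAB, 2 and 1 in ATAH and 3 and 1 in ATAS. SLC25A34 (higher) was called so in all 3. The other calls were of clusters that stood under the read minimum in fetal or in adult fat, SLC7A10 (lower) in all 3, SLC10A1 (higher) in ATAB and ATAH, and SLC7A8 and SLC25A35 (higher) in ATAS.

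**Figure D2:**
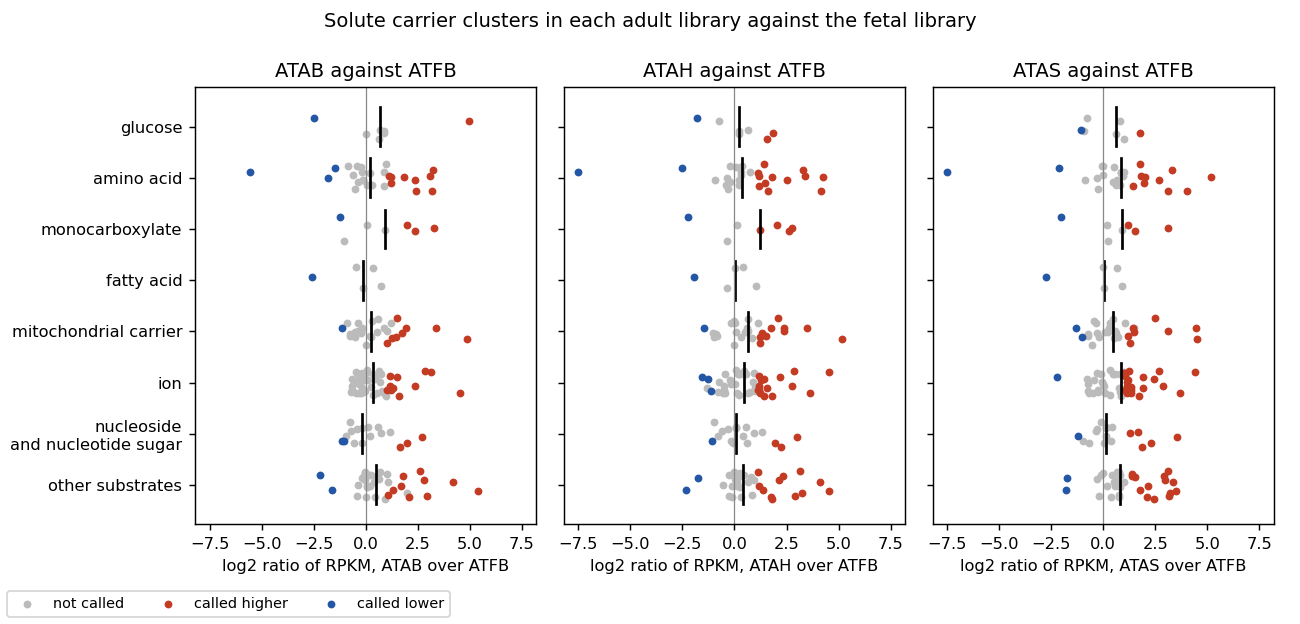
Log2 ratio of RPKM of each of the 170 solute carrier clusters, by class, in ATAB, ATAH and ATAS over ATFB. Points are clusters, spread vertically for legibility, red and blue points were called higher and lower, and black bars are class medians. SLC10A1, without a read in ATFB, is drawn with that 0 counted as 3 reads. SLC7A10 lies farthest to the left in each panel.

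**Figure D3:**
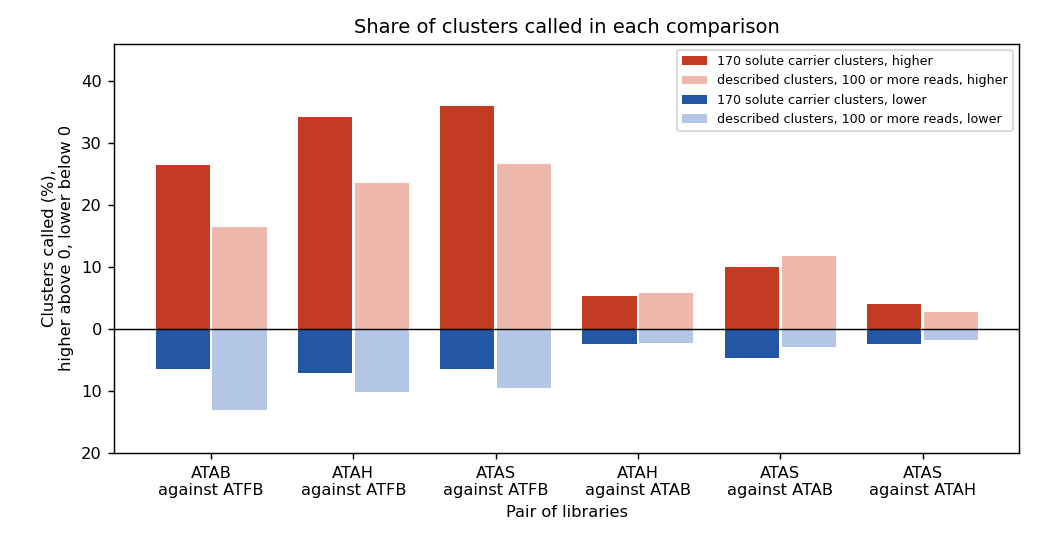
Percent of clusters called higher (above 0) and lower (below 0) in each pair of libraries, the first-named over the second, for the 170 solute carrier clusters and for the described clusters with 100 or more reads. Against ATFB the solute carriers had more calls of higher and fewer of lower than the described clusters, and between adult libraries the shares lay within a few percent of each other.

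When the 3 adult libraries were compared jointly with ATFB in edgeR's quasi-likelihood test with Benjamini-Hochberg adjustment, 33 clusters were higher and 5 lower at an FDR of 0.05. These are 19.4% and 2.94% of the members, against 13.6% and 7.04% of the described clusters and 9.83% and 8.39% of all 25584 clusters kept. An unadjusted p under 0.05 was found for 69 of the 170 members, and the share of other clusters under it was not taken. Bulls, heifers and steers served as replicates of an adult state here, and the lone fetal library was assumed to vary as they did. Leaving out ATAB or ATAS gave more calls in both directions, and leaving out ATAH gave fewer. The share of described clusters called was not taken in these fits. SLC7A10 (log2 ratio -6.49) is among those calls, but it is a member through its fetal reads alone, so its p supports nothing here. SLC25A34 (log2 ratio 4.86, adjusted p = 0.0084 in the quasi-likelihood test of edgeR) and SLC46A3 (2.93, the same adjusted p) were higher in 3 of 3. SLC38A10 (2.48) had an adjusted p of 0.00891 in that test and was also higher in 3 of 3. SLC36A1 (3.24) was called too, but it passed the read minimum only through the adult libraries, so its p likewise supports nothing here. Over the alternative fits, which include the DESeq2 Wald test, the adjusted p of SLC25A34, SLC46A3 and SLC38A10 varied widely. Each of these fits rests on the lone fetal library.

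Among glucose and related sugar carriers, 7 clusters passed the minimum. One was called higher and one lower in ATAB than in ATFB (14.3% each), 2 and 1 in ATAH (28.6% and 14.3%), and 1 and 1 in ATAS (14.3% each). Here and for the classes and gene lists below, the shares of described clusters called higher and lower than ATFB were 16.4% and 13.1% in ATAB, 23.5% and 10.2% in ATAH, and 26.6% and 9.49% in ATAS. No class or list was tested against these shares. SLC2A3, the high-affinity facilitative transporter GLUT3, had 117 RPKM in fetal fat and 20.9, 33.7 and 68.1 in bull, heifer and steer fat. ATFB was the highest library and ATAB the lowest. The level was 5.62-fold lower in ATAB than in ATFB (log2 ratio -2.49, 95% interval -2.57 to -2.41) and 3.48-fold lower in ATAH (-1.80, -1.87 to -1.73). In ATAS the log2 ratio to ATFB was -0.78 and was not called, while ACTB scaling took it to -1.04. SLC2A4, the insulin-responsive transporter GLUT4, had 11.8 RPKM in fetal fat and 19.2, 18.6 and 5.54 in bull, heifer and steer fat. Only ATAS was called against ATFB, 2.13-fold lower (log2 ratio -1.09, -1.33 to -0.86), and neither 0.70 in ATAB nor 0.66 in ATAH was called. SLC2A5, the fructose carrier GLUT5, had 5 reads in fetal fat and 163, 3 and 9 in bull, heifer and steer fat. It passed the minimum only through ATAB, with 17 reads in the other libraries together. Its level of 4.71 RPKM in ATAB was 30.8-fold that in ATFB (log2 ratio 4.95, 3.69 to 6.59), and the other libraries lay at 0.0899 to 0.27 RPKM. Of its 50-base words, 17.4% also occur in another deposited sequence, so its level is uncertain. SLC2A10, another facilitative carrier, ranged from 0.598 to 2.09 RPKM. SLC2A1, the widespread transporter GLUT1, was not analysed here.

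The first bases of the coding sequence of these 3 sugar carriers, whose levels ranked the libraries differently, are given as they stand in the deposited UniGene sequence file. The start codon is in capitals, and bases are counted from the first base of the deposited sequence.
SLC2A3, bases 116 to 175: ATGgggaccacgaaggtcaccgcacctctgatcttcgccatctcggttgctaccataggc
SLC2A4, bases 189 to 248: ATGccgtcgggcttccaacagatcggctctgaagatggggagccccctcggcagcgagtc
SLC2A5, bases 59 to 118: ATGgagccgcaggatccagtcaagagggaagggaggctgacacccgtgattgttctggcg

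Of 12 genes of insulin signalling and GLUT4 traffic, 6 had a cluster. Of these, 1, 1 and 2 were called higher than ATFB in bull, heifer and steer fat (16.7%, 16.7% and 33.3%) and none lower. AKT2, the insulin-regulated kinase of that route, had 22.95 RPKM in fetal fat and 86.0, 87.1 and 82.6 in bull, heifer and steer fat. TBC1D4, which holds GLUT4 vesicles inside the cell, had 8.85, 9.22, 8.87 and 10.4 RPKM in the same order.

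The amino acid class had 27 clusters, of which 9 were called higher and 3 lower in ATAB than in ATFB (33.3% and 11.1%), 12 and 2 in ATAH (44.4% and 7.41%), and 10 and 2 in ATAS (37.0% and 7.41%). The most abundant were SLC38A2, a sodium-coupled importer of small neutral amino acids, with 75.0 RPKM in fetal fat and 41.4, 64.9 and 73.7 in bull, heifer and steer fat, and SLC3A2, the heavy chain that carries several SLC7 light chains to the membrane, with 41.2, 27.4, 50.4 and 40.9 RPKM. Neither was called in any pair of libraries, except that ACTB scaling took SLC38A2 to a log2 ratio of -1.09 in ATAB.

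The widest contrasts of the class were in family 7. SLC7A10, the exchanger of small neutral amino acids known as Asc-1 and used as a surface marker of white adipocytes in mice and people, had 356 reads in fetal fat and 8, 2 and 2 in bull, heifer and steer fat. These are 14.1 RPKM in ATFB and 0.299, 0.0774 and 0.0775 RPKM in the adult libraries. With 12 reads in the adult libraries together, it passed the minimum only through ATFB, where it was high. It was 47.0-fold lower in ATAB (log2 ratio -5.56, 95% interval -6.78 to -4.56), and the log2 ratios to ATFB were -7.51 in ATAH (-10.56 to -5.64) and -7.50 in ATAS (-10.55 to -5.64). SLC7A8, the exchanger LAT2 of large neutral amino acids, ran the other way and had 1.38 RPKM in fetal fat and 4.96, 26.5 and 49.4 in bull, heifer and steer fat. It was 3.59-fold higher than ATFB in ATAB (log2 ratio 1.85, 1.47 to 2.23), 19.2-fold in ATAH (4.26, 3.93 to 4.61) and 35.8-fold in ATAS (5.16, 4.83 to 5.51). SLC7A5, the related LAT1, lay between 1.63 and 3.26 RPKM and was called in no pair. SLC7A4, a family member without an established transport activity, had 10 reads in ATFB and 96, 181 and 163 in ATAB, ATAH and ATAS. These are 0.295 RPKM in ATFB and 2.68, 5.24 and 4.73 RPKM in the adult libraries, 9.08- to 17.7-fold higher. It passed the minimum only through the adult libraries, where it was higher.

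The coding starts of the light chains with opposite patterns, from the same file, are shown with the start codon in capitals. The deposited sequence of SLC7A8 begins at that codon.
SLC7A10, bases 94 to 153: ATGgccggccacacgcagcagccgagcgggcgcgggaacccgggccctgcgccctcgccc
SLC7A8, bases 1 to 60: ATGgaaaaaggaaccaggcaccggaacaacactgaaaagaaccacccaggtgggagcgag

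Family 38 held contrasts in both directions. SLC38A3, the glutamine carrier SNAT3, had 1.496 RPKM in fetal fat and 12.8, 15.6 and 5.28 in bull, heifer and steer fat, called higher in all 3 adult libraries by 8.54-, 10.4- and 3.53-fold. SLC38A5, the related SNAT5, had 6.07 RPKM in ATFB and 2.16, 1.05 and 1.40 RPKM in ATAB, ATAH and ATAS, called lower by 2.81-, 5.78- and 4.33-fold. SLC38A10 had 4.50, 22.9, 25.5 and 28.9 RPKM, with adult libraries close to each other and 5.09- to 6.43-fold above ATFB. SLC36A1, a proton-coupled exporter of amino acids from lysosomes, had 17 reads in ATFB and 168, 170 and 172 in ATAB, ATAH and ATAS, which are 0.727 RPKM against 6.80, 7.12 and 7.22. SLC43A1, the carrier LAT3 of branched-chain amino acids, had 44.9 RPKM in fetal fat and 13.0, 34.8 and 36.5 in bull, heifer and steer fat, and only ATAB was called against ATFB, 3.47-fold lower (log2 ratio -1.79, -1.94 to -1.64). SLC6A16, an orphan member of the neurotransmitter transporter family, had 0.766 RPKM in fetal fat and 4.12, 2.31 and 6.62 in the adult libraries and was called higher in each adult library. Of 10 genes that respond to amino acid supply, 8 had a cluster. None was called against ATFB in ATAB, 2 were higher in ATAH (25%) and 3 in ATAS (37.5%), and none was lower. Among them GLUL, glutamine synthetase, had 256 RPKM in fetal fat and 291, 481 and 664 in bull, heifer and steer fat.

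Among 7 monocarboxylate carrier clusters, 3 were called higher and 1 lower than ATFB in ATAB (42.9% and 14.3%), 4 and 1 in ATAH (57.1% and 14.3%), and 3 and 1 in ATAS (42.9% and 14.3%). SLC16A1, the lactate, pyruvate and ketone body carrier MCT1, had 16.7 RPKM in fetal fat and 66.2, 68.2 and 37.4 in bull, heifer and steer fat. It was 3.96-fold higher in ATAB (log2 ratio 1.99, 1.88 to 2.10), 4.08-fold in ATAH (2.03, 1.92 to 2.14) and 2.24-fold in ATAS (1.16, 1.04 to 1.28), the last not called with ACTB as the scaling gene (0.91). SLC16A7, the high-affinity carrier MCT2, had 11.6 RPKM in fetal fat and 59.9, 72.2 and 33.3 in the adult libraries and was 5.16-, 6.21- and 2.87-fold above ATFB. For both, ATFB was the lowest library and ATAS the lowest of the adult ones. SLC16A3, the lactate exporter MCT4 of glycolytic cells, went the other way, with 6.40 RPKM in ATFB and 2.71, 1.38 and 1.54 RPKM in the adult libraries, 2.36-, 4.64- and 4.15-fold lower. SLC16A13 lay at 14.1, 14.7, 15.3 and 16.1 RPKM and was called in no pair.

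Of 9 other genes of lactate and pyruvate handling, 3 had a cluster. Of these, 2, 2 and 1 were called higher than ATFB in bull, heifer and steer fat (66.7%, 66.7% and 33.3%) and none lower. BSG, the membrane partner of MCT1 and MCT4, had 585 RPKM in fetal fat and 2099.6, 996 and 818 in bull, heifer and steer fat, and was called only in ATAB (log2 ratio 1.84). PC, pyruvate carboxylase, had 16.3, 82.8, 93.2 and 94.5 RPKM and was called higher in all 3.

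The 5 fatty acid transport proteins of family 27 had no cluster called higher in any adult library, and 1 was called lower in each (20%). With 5 clusters this is too few to set against the background. SLC27A1, the insulin-responsive FATP1 of adipocytes, had 9.28 RPKM in fetal fat and 8.57, 7.34 and 9.47 in bull, heifer and steer fat. SLC27A3 ranged from 5.58 to 10.4 RPKM, SLC27A4 from 0.813 to 1.66 and SLC27A6 from 0.635 to 0.987, and none of these 4 was called in any pair. SLC27A5, the bile acid and very long chain acyl-CoA ligase of liver, had 112 reads in ATFB and 20, 30 and 17 in ATAB, ATAH and ATAS. With 67 reads in the adult libraries together, it passed the minimum only through ATFB. Its 3.20 RPKM in ATFB was 5.92-, 3.81- and 6.71-fold above the adult libraries. Of 11 other genes of fatty acid uptake and activation, 9 had a cluster. In ATAB 4 were called higher and 1 lower (44.4% and 11.1%), in ATAH 4 and 1 (44.4% and 11.1%), and in ATAS 3 and 2 (33.3% and 22.2%). CD36, the fatty acid translocase, had 181 RPKM in fetal fat and 926, 1097 and 1111 in bull, heifer and steer fat, and ACSL1, an acyl-CoA synthetase, had 41.7, 163, 187 and 96.2 RPKM, both called higher in all 3.

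Family 25, the mitochondrial carriers, had 28 clusters, of which 8 were called higher and 1 lower in ATAB than in ATFB (28.6% and 3.57%), 10 and 1 in ATAH (35.7% and 3.57%), and 8 and 2 in ATAS (28.6% and 7.14%). The family is known by a signature motif that recurs once in each of its repeats. It was searched in the coding frame as 6 codons, for proline, any residue, aspartate or glutamate, any 2 residues, and lysine or arginine. This search found at least 1 in 28 of 28 family 25 clusters (100%) and in 37 of the 142 other members (26.1%). At least 3 were found in 17 of the 28 (60.7%) and in none of the others. The first match of the pair with the largest rises is shown with the 6 codons in capitals, from the deposited sequence file.
SLC25A34, capitals at bases 251 to 268: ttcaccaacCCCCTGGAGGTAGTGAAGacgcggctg
SLC25A35, capitals at bases 608 to 625: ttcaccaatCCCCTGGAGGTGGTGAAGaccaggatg

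SLC25A34 and SLC25A35 are related carriers without an established substrate in mammals. SLC25A34 had 203 reads in fetal fat and 6301, 7506 and 4663 in bull, heifer and steer fat, or 4.96, 145.8, 179.8 and 112 RPKM. It was 29.4-fold higher than ATFB in ATAB (log2 ratio 4.88, 4.67 to 5.08), 36.2-fold in ATAH (5.18, 4.98 to 5.39) and 22.6-fold in ATAS (4.50, 4.29 to 4.71). Within its class it ranked 16 of 28 by RPKM in ATFB and 3 of 28 in each adult library. SLC25A35 had 1.82 RPKM in fetal fat and 19.0, 20.1 and 40.2 in the adult libraries, 10.5-, 11.1- and 22.1-fold above ATFB. SLC25A30, a kidney-rich carrier, had 4.62 RPKM in fetal fat and 9.23, 23.8 and 39.5 in bull, heifer and steer fat and was called higher in ATAH (5.15-fold) and ATAS (8.56-fold). In ATAB its log2 ratio was 0.998, just short of a call that TMM and DESeq2 factors made (1.17 and 1.14). SLC25A33, a pyrimidine nucleotide carrier, had 12.1, 8.48, 18.4 and 34.3 RPKM and was called higher than ATFB only in ATAS, 2.82-fold.

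SLC25A6, an ADP/ATP translocase, had 998 RPKM in fetal fat and 460.1, 359 and 403 in bull, heifer and steer fat, the highest level of any member in ATFB. It was called 2.17-, 2.78- and 2.48-fold lower in the adult libraries, but the call in ATAB was lost with TMM (log2 ratio -0.94) and DESeq2 (-0.97) factors. Of its sequence, 32.6% of the 50-base words also occur in another deposited sequence, so the level is uncertain. SLC25A3, the phosphate carrier, had 200.4 RPKM in fetal fat and 244, 195 and 145 in bull, heifer and steer fat and was called in no pair, but ATAS was lower than ATAB with TMM (log2 ratio -1.05) and DESeq2 (-1.06) factors. SLC25A20, the carnitine and acylcarnitine carrier, had 37.0, 43.9, 45.7 and 32.6 RPKM, and SLC25A11, the oxoglutarate and malate carrier, had 50.8, 51.6, 49.7 and 35.0, neither with a call. SLC25A39, a glutathione carrier of mitochondria, had 40.1, 97.1, 71.5 and 57.4 RPKM and was called higher only in ATAB, 2.42-fold, with 43.4% of its words shared. Of 8 genes of the outer membrane and carnitine shuttle, 6 had a cluster. In each adult library 4 of these, CPT1A, CPT1B, CPT2 and CRAT, were called higher (66.7%). CPT1A, which makes the acylcarnitine that SLC25A20 carries, had 1.96 RPKM in ATFB and 12.6, 16.3 and 32.7 RPKM in ATAB, ATAH and ATAS.

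The ion class was the largest, with 45 clusters, of which 11 were called higher and 0 lower than ATFB in ATAB (24.4% and 0%), 15 and 3 in ATAH (33.3% and 6.67%), and 20 and 1 in ATAS (44.4% and 2.22%). Its most abundant entry by mean RPKM, SLC9A3R2, is a scaffold that binds a sodium and proton exchanger, and it had 58.7 RPKM in fetal fat and 42.2, 80.3 and 116 in bull, heifer and steer fat, with no call against ATFB. Zinc carriers of family 39 followed, SLC39A1 with 72.6, 55.9, 52.3 and 67.6 RPKM and SLC39A7 with 57.4, 45.3, 41.7 and 35.2, also without a call in any pair. SLC12A4, the potassium and chloride cotransporter KCC1, had 24.0, 28.4, 46.9 and 60.3 RPKM and was called higher than ATFB only in ATAS, 2.51-fold.

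Larger ratios were found among less abundant ion carriers. SLC4A4, a sodium bicarbonate cotransporter, had 1.52 RPKM in fetal fat and 11.01, 11.01 and 9.83 in bull, heifer and steer fat, 7.23-, 7.23- and 6.45-fold higher. SLC24A3, a sodium, calcium and potassium exchanger, had 13 reads in ATFB and 315, 165 and 172 in the adult libraries, 22.9-, 12.4- and 13.0-fold higher per library total. SLC26A2, a sulfate carrier, had 11 reads in ATFB and 101, 261 and 239 in ATAB, ATAH and ATAS. These are 0.327 RPKM in ATFB and 2.84, 7.59 and 6.97 RPKM in the adult libraries, 8.68-, 23.2- and 21.3-fold higher. All 3 stood higher in every adult library than in ATFB, where they were near or under 1.52 RPKM. SLC26A10 had 3.60 RPKM in fetal fat and 4.94, 9.52 and 19.7 in bull, heifer and steer fat and was called higher in ATAH (2.65-fold) and ATAS (5.48-fold).

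Metal carriers of the list of fat transporters differed among themselves. SLC40A1, ferroportin, the iron exporter, had 13.7 RPKM in fetal fat and 31.0, 30.8 and 29.9 in bull, heifer and steer fat, called 2.26-, 2.25- and 2.19-fold higher, calls that ACTB scaling took to log2 ratios of 0.94, 0.90 and 0.88 and, in ATAS, DESeq2 factors to 0.97. SLC30A1, the zinc exporter ZnT1, had 1.496, 4.22, 6.75 and 5.71 RPKM and was called higher in all 3. SLC39A14, an importer of zinc and iron, lay between 4.93 and 8.31 RPKM without a call except for ATAS with ACTB scaling (log2 ratio -1.005), and SLC39A8 was called higher only in ATAS (5.76 against 2.86 RPKM), a call not made with TMM, DESeq2 or ACTB scaling. SLC20A1, a phosphate carrier, had 11.6, 11.5, 28.1 and 26.003 RPKM and was called higher than ATFB in ATAH and ATAS, the latter not with ACTB scaling (0.91). SLC8A1, a sodium and calcium exchanger, lay between 2.11 and 3.53 RPKM without a call. SLC4A11 had 8.54 RPKM in fetal fat and 8.30, 3.90 and 5.14 in bull, heifer and steer fat and was called lower in ATAH, 2.19-fold. Of 12 genes of ion pumps and metal storage, 7 had a cluster. Of these, 3, 4 and 4 were called higher than ATFB in bull, heifer and steer fat (42.9%, 57.1% and 57.1%) and none lower.

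Carriers of nucleosides and nucleotide sugars had 17 clusters, with 3 called higher and 2 lower than ATFB in ATAB (17.6% and 11.8%), 3 and 1 in ATAH (17.6% and 5.88%), and 5 and 1 in ATAS (29.4% and 5.88%). SLC29A1, the nucleoside carrier ENT1 that also moves adenosine, had 469 RPKM in fetal fat and 226, 421 and 599 in bull, heifer and steer fat, which made it the most abundant member in ATAH and ATAS. It was called 2.07-fold lower in ATAB than in ATFB, a call lost with TMM (log2 ratio -0.87) and DESeq2 (-0.91) factors. The Golgi carriers SLC35C2 (28.1 to 36.8 RPKM), SLC35A4 (18.3 to 27.4) and SLC35B2 (15.98 to 21.6), the last a carrier of the sulfate donor, were called in no pair.

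The 34 clusters of other substrates had 10 called higher and 2 lower than ATFB in ATAB (29.4% and 5.88%), 12 and 2 in ATAH (35.3% and 5.88%), and 14 and 2 in ATAS (41.2% and 5.88%). SLC46A3, a lysosomal carrier, had 2.53 RPKM in fetal fat and 15.3, 22.3 and 22.2 in bull, heifer and steer fat, 6.05-, 8.80- and 8.77-fold higher. SLC13A3, a sodium-coupled dicarboxylate carrier for intermediates such as succinate and citrate, had 23 reads in ATFB and 442, 409 and 236 in ATAB, ATAH and ATAS. These are 0.450, 8.18, 7.84 and 4.53 RPKM, 18.2-, 17.4- and 10.1-fold higher in the adult libraries. SLC10A1, the bile acid carrier NTCP of liver, had no read in ATFB but 132, 71 and 34 reads in bull, heifer and steer fat. With the 0 counted as 3 reads, it was 41.6-fold higher in ATAB, 23.2-fold in ATAH and 11.1-fold in ATAS. These ratios leave out the counting error of the adult reads. SLC23A2, the vitamin C carrier SVCT2, had 2 clusters. The larger one had 254, 515, 909 and 1423 reads in ATFB, ATAB, ATAH and ATAS and was called higher in ATAH (3.51-fold) and ATAS (5.50-fold) and, with TMM factors, in ATAB (log2 ratio 1.12), and the smaller one, named after its values were seen, had 18, 147, 139 and 165 reads and was called higher in all 3. SLC13A4, a sulfate carrier, had 3.94 RPKM in ATFB and 1.29, 0.773 and 1.15 in the adult libraries, called lower in each, and SLC10A6, a carrier of sulfated steroids, had 3.44, 0.748, 2.85 and 3.21 RPKM and was called lower only in ATAB, 4.60-fold. SLC44A2, a choline-like carrier, with 48.9 to 86.3 RPKM, and SLC22A17, with 32.0 to 40.4, were abundant and called in no pair. SLC48A1, a heme carrier, had 18.1, 29.0, 40.1 and 30.5 RPKM and was called only in ATAH, 2.22-fold higher, a call not made with ACTB scaling (0.88).

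Comparing the adult libraries addressed sex and castration. In ATAH against ATAB, 9 were called higher (5.29%, against 5.88% of the described and 4.14% of all clusters) and 4 lower (2.35%, against 2.19% and 1.23%). In ATAS against ATAB, 17 were called higher (10%, against 11.7% and 6.86%) and 8 lower (4.71%, against 2.88% and 1.87%). In ATAS against ATAH, 7 were called higher (4.12%, against 2.74% and 1.52%) and 4 lower (2.35%, against 1.73% and 1.48%). With TMM factors, which moved the log2 ratios to ATAB by -0.28 in ATAH and -0.29 in ATAS, the split became 7 higher and 10 lower in ATAH and 12 and 18 in ATAS, a change that follows from a constant applied to each cluster. Among the described clusters TMM factors called 3.11% higher and 3.69% lower in ATAH and 6.12% and 5.26% in ATAS. The members had 4.12% and 5.88% in ATAH and 7.06% and 10.6% in ATAS. The median log2 ratio of the members over ATAB was 0.15 in ATAH and 0.28 in ATAS, beside 0.26 and 0.35 for the described clusters. With TMM factors it was -0.12 and -0.02, beside -0.02 and 0.05. With an assumed coefficient of variation of 0.4, no member was called between adult libraries in edgeR's exact test.

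**Figure D4:**
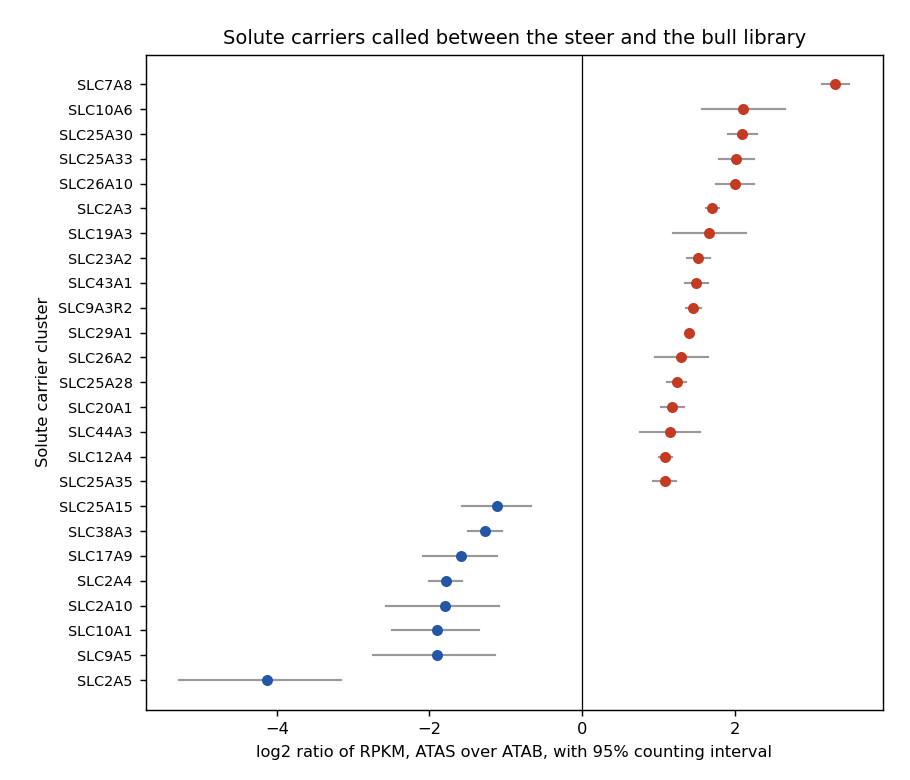
Log2 ratio of RPKM in ATAS over ATAB for the 25 solute carrier clusters called between these libraries, with 95% counting intervals as bars, red for higher and blue for lower in ATAS. SLC7A8 lies at 3.32 and SLC2A5, a member through its ATAB reads alone, at -4.12. The clusters were chosen by this call, so their distance from 0 is a description.

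The largest ratio of steer over bull fat among the members was that of SLC7A8, 9.96-fold higher in ATAS (log2 ratio 3.32, 95% interval 3.14 to 3.50), with ATAH 5.33-fold above ATAB (2.41, 2.23 to 2.60). SLC43A1 was 2.82-fold higher in ATAS and 2.68-fold higher in ATAH than in ATAB. SLC7A5, at a log2 ratio of 0.999 in ATAS over ATAB (0.66 to 1.35), lay just short of a call. Mitochondrial SLC25A30 was 4.28-fold (2.10, 1.92 to 2.28) and SLC25A33 4.04-fold (2.02, 1.79 to 2.25) higher in ATAS than in ATAB. SLC26A10 was higher in ATAS than in ATAB (19.7 against 4.94 RPKM) and 2.07-fold higher than in ATAH. SLC10A6 was 4.29-fold higher in ATAS and 3.81-fold in ATAH than in ATAB, where it had 37 reads. SLC29A1 was 2.65-fold higher (1.40, 1.37 to 1.44), and SLC9A3R2 2.74-fold higher, in ATAS than in ATAB. SLC19A3, a thiamine carrier, had 1.27 RPKM in fetal fat and 1.15, 2.22 and 3.64 in bull, heifer and steer fat and was 3.16-fold higher in ATAS than in ATAB.

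The sugar carriers split between the adult libraries. SLC2A3 was 3.26-fold higher in ATAS than in ATAB (log2 ratio 1.71, 1.62 to 1.79) and 2.02-fold higher than in ATAH (1.02, 0.94 to 1.09), the latter at 0.998 with TMM factors and so no longer called. SLC2A4 was 3.46-fold lower in ATAS than in ATAB (-1.79, -2.01 to -1.58) and 3.36-fold lower than in ATAH (-1.75, -1.97 to -1.53). ATAS therefore had the highest SLC2A3 and the lowest SLC2A4 of the adult libraries. SLC2A10 was 3.49-fold lower and SLC2A5 17.4-fold lower (-4.12, -5.28 to -3.16) in ATAS than in ATAB, and in ATAH SLC2A5 had a log2 ratio to ATAB of -5.71 (-8.01 to -4.14). SLC2A5 was thus counted above 9 reads in the bull library alone. None of the 6 genes of insulin signalling and GLUT4 traffic was called between adult libraries, where 1.73% to 11.7% of described clusters were called in a direction.

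Other carriers were lower in steer fat. SLC38A3 was 2.42-fold lower in ATAS than in ATAB and 2.95-fold lower than in ATAH. SLC16A7 was 2.16-fold lower in ATAS than in ATAH, and SLC16A1, with log2 ratios of -0.82 to ATAB and -0.86 to ATAH, was not called. With TMM factors both were called lower in ATAS than in ATAB, SLC16A1 at -1.12 and SLC16A7 at -1.14. SLC10A1 was 3.74-fold lower in ATAS than in ATAB, and SLC17A9, the vesicular nucleotide carrier, had 4.73 RPKM in fetal fat and 4.22, 1.40 and 1.40 in bull, heifer and steer fat, 3.02- and 3.01-fold lower than ATAB in ATAH and ATAS. SLC4A11 was 2.13-fold lower in ATAH than in ATAB. SLC35A3, a carrier of UDP-N-acetylglucosamine, had 1.34, 0.910, 2.04 and 0.841 RPKM in ATFB, ATAB, ATAH and ATAS and was 2.43-fold lower in ATAS than in ATAH. SLC25A35 (40.2 against 20.1 RPKM), SLC6A16 (2.86-fold) and SLC15A3 (2.12-fold), a lysosomal peptide carrier with 18.0 RPKM in ATAS and 8.49 in ATAH, were higher in ATAS than in ATAH, and the first was not called with TMM factors.

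Of the 45 transporters of the list for fat, 29 were members, and SLC7A11, with 2 reads in ATAB and none elsewhere, was the only other one with a cluster. Over these 30, 7 were called higher and 6 lower than ATFB in ATAB (23.3% and 20%, against 16.4% and 13.1% of the described clusters). In ATAH they numbered 7 and 4 (23.3% and 13.3%, against 23.5% and 10.2%), and in ATAS 9 and 4 (30% and 13.3%, against 26.6% and 9.49%). Their median log2 ratio was 0.00, 0.29 and 0.35 in that order, beside 0.29, 0.44 and 0.70 for all 170 clusters.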

How the data were processed

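RNA of 4 pools of subcutaneous fat, 1 per group, was sequenced. Per the methods, the authors aligned cleaned reads to the bosTau7 genome with SOAPaligner, first without and then with fewer than 3 mismatches. The files list UniGene sequences, and how reads were assigned to these was not given in the sources used here. The submitters' processing notes also name CASAVA. The deposited files hold the count of uniquely matched reads per UniGene cluster, without normalization, as deposited by the authors. The authors also deposited the RPKM computed from these counts and, as percent, how much of a cluster sequence reads covered. The deposited files name no genes, so descriptions were read from the deposited sequence file, and the symbols of all 170 clusters were found in a RefSeq gene table (ARS-UCD2.0, names only, 166 as symbol and 4 as synonym).

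Members and lists were chosen with earlier results of these data known. Each family was assigned to a class by its usual substrates. Pairs of libraries were compared on the counts with library totals as scale, by an exact binomial test (FDR 0.001, log2 ratio 1), and the 3 adult libraries against ATFB by edgeR's quasi-likelihood test with TMM factors (FDR 0.05). These scripts were tested on simulated data. A count of 0 was taken as up to 3 reads. Since reads carry no molecular identifiers, intervals cover counting error only. Named were up to 5 largest called rises and falls per pair with 100 or more reads in 1 of the 2 libraries, the 4 most abundant members of each class, the members in the list of fat transporters and the 5 smallest adjusted p of the adult test. Results for some genes that these rules name are not reported here. Alternatives were TMM, DESeq2 and ACTB scaling, an assumed coefficient of variation, a minimum of 400 reads, clusters of 1 symbol combined, no filter, the DESeq2 Wald test and leaving out each adult library. Of the members, 79 share at least 1 word of 50 bases with another deposited sequence, between which reads could be split or left uncounted. Python 3.11.15, numpy 2.4.6, scipy 1.17.1, pandas 2.3.3, R 4.3.3, edgeR 4.0.16 and DESeq2 1.42.0 were used.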

Additional observations from a re-analysis of the deposited data

How the results depend on the processing

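The calls rest most on what is taken as error. With edgeR's exact test and an assumed biological coefficient of variation of 0.4, the solute carrier clusters called against ATFB numbered 2 higher and 1 lower in ATAB, 2 and 1 in ATAH and 3 and 1 in ATAS, and 0 and 0 in each of the 3 adult pairs. ACTB as the scaling gene gave 19 lower in ATAH and 17 lower in ATAS against ATFB. TMM factors gave 10 lower in ATAH and 18 lower in ATAS against ATAB, and DESeq2 size factors gave 10 and 18 lower with 11 higher in ATAS. A minimum of 400 reads, which leaves 129 members, gave 7, 7 and 6 lower in ATAB, ATAH and ATAS against ATFB, and 2 and 3 lower in ATAH and ATAS against ATAB. In the test of 3 adult libraries, that minimum gave 1 lower and the DESeq2 Wald test 8 lower, and leaving out 1 adult library gave 25 to 50 higher and 2 to 17 lower. Every other alternative count of calls lay within 1.5 times the reported one. For the fits without an adult library, the share of described clusters called was not taken. Apart from the fewer members and libraries, the cause of these shifts was not tested.

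Of the 141 called ratios of named clusters, 131 were still called with TMM factors, 129 with DESeq2 factors and 134 with ACTB scaling, and none changed direction. Of the 261 that were not called, 15, 15 and 4 were called under these settings. No paired analysis was possible because the groups compared share fewer than 2 replicate numbers. Depth limits the low carriers, since a count of 0 allows up to 3 reads.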
